A study of Mus musculus with 18 samples.

Results

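Transcripts of the nuclear genes for the mitochondrial respiratory chain were followed from naive through activated B cells to plasma cells in mice with and without a B cell deletion of G9a. The genes were taken by symbol from the deposited expression table: names beginning with Ndufa, Ndufb, Ndufc, Ndufs or Ndufv, the genes Sdha to Sdhd, and names beginning with Uqcr, with Cox followed by a digit from 4 to 8, or with Atp5. The rule found 85 of the 12960 genes in the table, and all 85 were among the 12787 genes tested. By their known roles 36 encode subunits of complex I, 4 of complex II, 8 of complex III, 13 of complex IV and 15 of complex V. Another 8 are the complex I assembly factors Ndufaf1 to Ndufaf8, and the last, Atp5s, is not an ATP synthase subunit despite its symbol. Ndufa4 was counted with complex IV, to which the protein belongs, and Cox7a2l with complex IV as the factor that joins complexes III and IV.

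The respiratory chain passes electrons from NADH (complex I) or succinate (complex II) through ubiquinone to complex III, cytochrome c and complex IV, which reduces oxygen. Complexes I, III and IV pump protons across the inner mitochondrial membrane, and complex V, the ATP synthase, uses their return to make ATP. All complexes but complex II combine subunits from nuclear genes with subunits from mitochondrial DNA, so the nuclear transcripts are only part of the recipe. B cells that divide and plasma cells that secrete antibody are known for a high demand on mitochondria.

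There were 18 libraries, 3 in each of 6 groups. KO mice carried G9afl/fl with a Cre recombinase allele active in B cells, which could delete G9a (gene symbol Ehmt2), an enzyme that methylates lysine 9 of histone H3. Ctrl mice carried the same Cre allele without the floxed gene, so Cre was common to both genotypes. Activated B cells (B220+GL7+) and plasma cells (CD138+ with intermediate or low B220) were sorted, after exclusion of F4/80, CD11b and Thy1.2 positive cells, from spleens taken 72 h after lipopolysaccharide (LPS) was given by tail vein. The naive cells came from uninfected mice by CD43 bead enrichment; a naive sample therefore differs from an activated one in LPS exposure and in how it was isolated as well as in cell type. Ages were not given in the labels, nor whether replicates came from separate animals, so p-values here reflect only sample-to-sample spread, which may be technical.

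Values are scaled RPKM (reads per kilobase of gene, relative to sequencing depth, adjusted between libraries), a change is the difference in mean log2(scaled RPKM + 1), given with its standard error (SE), and genes were called at an adjusted p under 0.05 from limma. Depth estimated from the files was 1630000 to 3910000 reads in naive, 2660000 to 10700000 in activated and 5160000 to 6920000 in plasma cell libraries, and naive replicates were the least alike: the median replicate correlation was 0.919 in KO and 0.926 in Ctrl naive cells, against 0.992 or 0.993 in the other 4 groups. Summed RPKM of 12 B cell identity genes was 5782 to 6109 in KO and 5304 to 5826 in Ctrl naive cells, 2890 to 2981 in KO and 3753 to 4293 in Ctrl activated cells, and 1017 to 1172 in KO and 1370 to 1715 in Ctrl plasma cells. The 9 plasma cell genes summed to 12372 to 13727 in KO and 13713 to 15372 in Ctrl plasma cells and to at most 1954 elsewhere, as the cell labels say. Ehmt2 itself averaged 17 ± 5.4 RPKM in KO and 19.4 ± 7.31 in Ctrl naive cells, 22.5 ± 0.817 and 22.3 ± 3.15 in activated KO and Ctrl cells, and 13.8 ± 1.28 and 17.2 ± 0.873 in plasma KO and Ctrl cells (SD, n = 3 each; adjusted p 0.695, 1.000 and 1.000). These are whole-gene values in which the deleted part cannot be seen apart, so they do not check the genotype, which is as the labels give it.

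The respiratory chain genes were among the most abundant transcripts of every group. Their median level was 114 RPKM in KO and 110 RPKM in Ctrl naive cells, where the median of all genes was 7.98 and 8.55 RPKM. It was 156 RPKM in KO and 144 RPKM in Ctrl activated cells, and 173 RPKM in KO and 178 RPKM in Ctrl plasma cells. In each group the median member stood at the 95.6th to 96.6th percentile of all genes. RPKM values are per length, but the gene models and the counting of shared reads are not stated. Genes can thus be set against each other only roughly. Atp5b, the catalytic beta subunit of complex V, reached 1039 ± 105 RPKM in KO and 933 ± 49 RPKM in Ctrl activated cells. Ndufa11, an accessory subunit and the lowest of complex I in all 6 groups, had 18.4 and 19.2 RPKM there. The assembly factors lay lower, with all 8 together summing to 163 ± 8.89 RPKM in KO and 150 ± 1.53 RPKM in Ctrl activated cells (SD, n = 3). Of 19 genes listed as members of isoform families, 12 were in the table. None of 26 mitochondrially encoded genes was in it, so the nuclear transcripts could not be set against their mitochondrial partners.

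Taken as sums, the RNA for the 76 subunits was larger at each later stage. In naive cells it was 10846 to 12970 RPKM in the 3 KO libraries and 9776 to 11191 RPKM in the 3 Ctrl libraries. In activated cells it was 15665 to 15734 RPKM in KO and 14683 to 15086 RPKM in Ctrl libraries, and in plasma cells 17623 to 19178 RPKM in KO and 17717 to 20826 RPKM in Ctrl libraries. Within each genotype the 3 stages did not overlap. As a share of all summed RPKM the subunits made up 3.06% ± 0.197 in KO and 2.84% ± 0.203 in Ctrl naive cells, 4.21% ± 0.0751 and 3.96% ± 0.0404 in activated KO and Ctrl cells, and 4.38% ± 0.107 and 4.37% ± 0.22 in plasma KO and Ctrl cells (SD, n = 3). By that share too the plasma and activated libraries did not overlap, at 4.26% to 4.47% against 4.12% to 4.25% in KO and 4.14% to 4.58% against 3.92% to 4% in Ctrl.

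**Figure D1:**
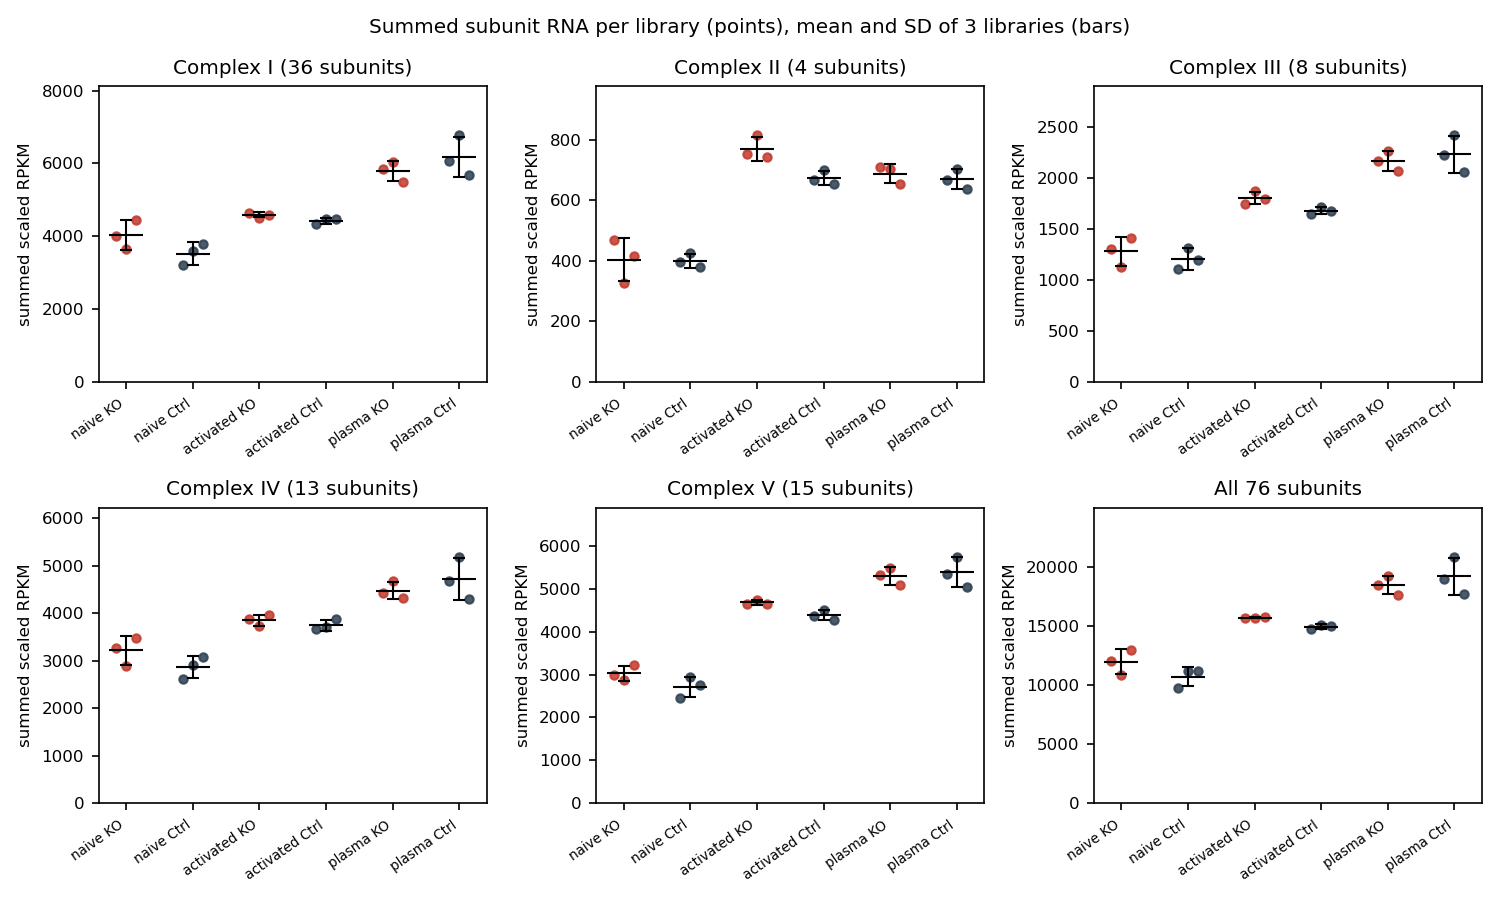
Summed scaled RPKM of the nuclear subunits of each complex and of all 76 subunits, with 1 point per library and bars for the mean and SD of 3 libraries per group (red KO, dark Ctrl). Complex V sums are 4648 to 4735 in activated KO libraries and 2864 to 3216 in naive KO libraries, while complex II stands at 652 to 708 in plasma KO libraries, below the 741 to 814 of activated KO libraries.

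The complexes did not keep fixed proportions. Complex II, the smallest, held 4.9% ± 0.259 of the subunit RNA in KO and 4.51% ± 0.133 in Ctrl activated cells. In naive cells it held 3.36% ± 0.458 in KO and 3.75% ± 0.342 in Ctrl, and in plasma cells 3.73% ± 0.0887 in KO and 3.5% ± 0.114 in Ctrl. Complex V held 29.8% ± 0.352 in KO and 29.4% ± 0.682 in Ctrl activated cells, against 25.3% ± 0.914 in KO and 25.4% ± 0.885 in Ctrl naive cells. Complex I had the opposite course, with 29.2% ± 0.427 in KO and 29.7% ± 0.191 in Ctrl activated cells, against 33.7% ± 0.547 in KO and 32.9% ± 0.929 in Ctrl naive cells (SD, n = 3 throughout). Complex III stayed between 10.7% and 11.8% in the group means. Complex IV, like complex I, held less in activated cells, at 24.6% ± 0.675 in KO and 25.2% ± 0.708 in Ctrl. Its naive shares were 26.9% ± 0.262 in KO and 26.8% ± 0.731 in Ctrl. In plasma cells it held 24.3% ± 0.324 in KO and 24.6% ± 0.308 in Ctrl. The shares are descriptions of sums and were not tested.

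The start regions of these genes were examined because nuclear respiratory genes are known as targets of the factors NRF1 and GABP (an ETS-family factor) and of YY1. RefSeq start windows of GRCm38.p6, 250 bases before to 50 bases after the start, were matched to 72 of the 85 genes; those with no entry included Atp5a1, Cox4i1, Cox4i2, Cox6c, Ndufa2, Ndufaf6, Ndufb9, Ndufs1, Sdhc, Uqcrb, Uqcrc2 and Uqcrq. Both strands were searched for an NRF1 motif (GCGC, any base, then TGCGC), the ETS motif CCGGAAG, the YY1 motif and the E-box CACGTG of Myc-family factors. The NRF1 motif stood in 19 of the 72 windows (26.4%), against 11.2% of the windows of all 10223 tested genes that had one and 5.19% of all 27025 genes with a window. It was in 2 of 3 complex II genes, 6 of 14 complex V genes, 7 of 32 complex I genes, 1 of 5 complex III genes and 1 of 10 complex IV genes. The ETS motif was in 18 members (25%, against 19.5% of tested genes), the YY1 motif in 11 (15.3% against 5.16%) and the E-box in 6 (8.33% against 11.6%). Of the 72 members, 33 had an NRF1 or an ETS match and 39 had neither. The 150 bases before the start are given, in RefSeq's sequence, for a complex II pair called higher in activation and lower in plasma cells (Sdha and Sdhd), for a complex V peripheral stalk gene (Atp5h) and for a complex I gene with a large plasma cell difference (Ndufs5). Capitals mark NRF1 and ETS matches on either strand.
Sdha (chr13:74350241-74350390, GRCm38.p6, minus strand): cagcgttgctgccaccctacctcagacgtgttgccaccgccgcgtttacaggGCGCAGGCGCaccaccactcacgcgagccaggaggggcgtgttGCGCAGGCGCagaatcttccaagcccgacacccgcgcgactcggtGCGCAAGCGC
Sdhd (chr9:50603850-50603999, GRCm38.p6, minus strand): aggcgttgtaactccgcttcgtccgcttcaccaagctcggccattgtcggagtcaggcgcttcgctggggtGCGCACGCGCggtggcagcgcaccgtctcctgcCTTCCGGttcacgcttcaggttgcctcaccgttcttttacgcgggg
Atp5h (chr11:115419920-115420069, GRCm38.p6, minus strand): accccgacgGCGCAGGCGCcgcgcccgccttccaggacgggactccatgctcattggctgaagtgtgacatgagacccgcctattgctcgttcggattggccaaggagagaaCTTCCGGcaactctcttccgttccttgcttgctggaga
Ndufs5 (chr4:123718187-123718336, GRCm38.p6, minus strand): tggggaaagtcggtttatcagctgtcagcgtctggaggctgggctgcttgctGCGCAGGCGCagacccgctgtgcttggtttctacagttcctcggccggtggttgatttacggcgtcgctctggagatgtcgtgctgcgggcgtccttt
Sdha has 3 NRF1 matches in these bases, Sdhd and Atp5h 1 NRF1 and 1 ETS match each, and Ndufs5 1 NRF1 match. A match says only that the letters are there. Every gene printed here holds an NRF1 match, as only 19 of the 72 members do, so these promoters are not typical of the members. Ndufa1 and Atp5b, which also had large changes, have windows with neither an NRF1 nor an ETS match and are not printed. The median activation change was 0.31 in KO and 0.44 in Ctrl for the 19 members with the NRF1 motif, and 0.46 in KO and 0.42 in Ctrl for the 53 without. In the plasma step the medians with and without it were 0.22 and 0.15 in KO and 0.30 and 0.22 in Ctrl. For the ETS motif the activation medians with and without it were 0.15 and 0.45 in KO and 0.29 and 0.45 in Ctrl. Its plasma step medians were 0.23 and 0.14 in KO and 0.34 and 0.21 in Ctrl. For the E-box, with 6 members, activation had 0.84 and 0.33 in KO and 0.90 and 0.41 in Ctrl. The plasma step had 0.17 and 0.17 in KO and 0.24 and 0.24 in Ctrl. For the YY1 motif they were 0.44 and 0.34 in KO and 0.44 and 0.42 in Ctrl activation. Its plasma step medians were 0.21 and 0.15 in KO and 0.27 and 0.24 in Ctrl. None of these differences was tested.

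Activation came with higher levels of most subunit transcripts. In activated compared with naive Ctrl cells 50 of the 85 genes rose and 1 fell, while among all tested genes 19% rose and 39.4% fell. The median change of the members was 0.45, against -0.29 for all genes. In KO cells 47 rose and 8 fell, where 21.2% of all genes rose and 34.5% fell, with medians of 0.40 and -0.26. Of the genes that rose, 44 did so in both genotypes, which share no library. Quantile normalization, which forces every library to 1 distribution, gave medians of 0.32 in Ctrl (45 higher, 4 lower) and 0.34 in KO (40 higher, 12 lower) and moved the median of all genes to -0.06 and -0.08. By that scaling the share of higher genes among all called moved to 48.5%, against 32.5% by the scaling used throughout, in Ctrl, and to 49.3%, against 38.1%, in KO.

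The catalytic head of the ATP synthase held some of the largest activation changes. Atp5b had 983, 1160 and 974 RPKM in KO and 964, 958 and 876 RPKM in Ctrl activated libraries, against 433, 426 and 465 RPKM in KO and 341, 442 and 454 RPKM in Ctrl naive libraries. Every activated library stood above every naive library. The change was 1.23 (SE 0.10, adjusted p = 1.0e-08) in KO and 1.19 (SE 0.10, adjusted p = 2.3e-08) in Ctrl. Its partner Atp5a1, the alpha subunit, changed by 1.19 (SE 0.11, adjusted p = 7.8e-08) in KO and 0.99 (SE 0.11, adjusted p = 1.0e-06) in Ctrl.

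Not every part of complex V moved alike. In Ctrl cells 4 of 5 F1 genes rose (median 0.87), 4 of 4 peripheral stalk genes (0.84), 2 of 3 genes of subunit c, which forms the rotor ring (0.91), and 1 of 3 small membrane subunits (0.33). The F1 gene that did not rise was Atp5e, the epsilon subunit of the central stalk, at 294, 227 and 326 RPKM in KO and 291, 309 and 293 RPKM in Ctrl activated libraries, against 353, 350 and 375 RPKM in KO and 284, 289 and 339 RPKM in Ctrl naive libraries. It fell in KO by 0.36 (SE 0.12, adjusted p = 0.014; 0.101 without activated KO replicate 3) and had a change of -0.02 (SE 0.12, adjusted p = 0.870) in Ctrl. The 3 subunit c genes encode the same mature protein, and their mix shifted: Atp5g2 held 15.3% ± 2.35 of their RNA in KO and 16.6% ± 0.811 in Ctrl activated cells, against 23.7% ± 3.81 in KO and 24.6% ± 6.11 in Ctrl naive cells.

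In complex II all 4 genes rose in both genotypes, with medians of 0.90 in KO and 0.77 in Ctrl. Sdhd, one of 2 membrane anchors, had 210, 219 and 207 RPKM in KO and 166, 177 and 166 RPKM in Ctrl activated libraries, against 92.4, 72.9 and 104 RPKM in KO and 116, 94 and 99.4 RPKM in Ctrl naive libraries. Its change of 1.25 in KO (SE 0.12, adjusted p = 1.0e-07) was the highest of all 85 members there, and in Ctrl it was 0.72 (SE 0.12, adjusted p = 7.0e-05). Sdhb, the iron-sulfur subunit, changed by 1.00 (SE 0.10, adjusted p = 2.9e-07) in KO and 0.87 (SE 0.10, adjusted p = 2.2e-06) in Ctrl. Sdha, the flavin subunit that oxidizes succinate, changed by 0.81 (SE 0.14, adjusted p = 1.4e-04) in KO and 0.61 (SE 0.14, adjusted p = 0.002) in Ctrl. The call of Sdhc in KO, 0.49 (SE 0.18, adjusted p = 0.032), rested on overlapping groups and was lost without naive KO replicate 2, activated KO replicate 1 or activated KO replicate 4 (adjusted p = 0.237, 0.087 and 0.121) and after quantile normalization (adjusted p = 0.114).

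In complex I core and accessory subunits are given apart, and the difference between them was not tested. Of its 7 core subunits, which carry the flavin and iron-sulfur clusters, 6 rose and 1 fell in KO (median 0.83), and 5 rose in Ctrl (median 0.88). Ndufv1, which binds NADH, had 102, 101 and 94.4 RPKM in KO and 84.7, 90.4 and 86.2 RPKM in Ctrl activated libraries, against 61.7, 60.1 and 46 RPKM in KO and 42.5, 53.1 and 45.2 RPKM in Ctrl naive libraries. Its change was 0.83 (SE 0.11, adjusted p = 7.0e-06) in KO and 0.88 (SE 0.11, adjusted p = 4.1e-06) in Ctrl. Ndufs1, the largest core subunit, changed by 0.94 (SE 0.15, adjusted p = 6.5e-05) in KO and 0.90 (SE 0.15, adjusted p = 1.0e-04) in Ctrl. Of the 29 accessory subunits, which surround the core, 13 rose and 5 fell in KO (median 0.31), and 14 rose and 1 fell in Ctrl (median 0.38). The subunit that fell in both genotypes was Ndufa3, at 277, 305 and 284 RPKM in KO and 292, 295 and 323 RPKM in Ctrl activated libraries, against 440, 374 and 501 RPKM in KO and 413, 367 and 382 RPKM in Ctrl naive libraries. It fell by 0.59 (SE 0.11, adjusted p = 1.6e-04) in KO and by 0.35 (SE 0.11, adjusted p = 0.009) in Ctrl, and the groups did not overlap.

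In complex III 6 of 8 genes rose in each genotype, with medians of 0.54 in KO and 0.50 in Ctrl. Uqcrc1, a core protein, changed by 1.00 (SE 0.10, adjusted p = 2.9e-07) in KO and 0.81 (SE 0.10, adjusted p = 5.0e-06) in Ctrl, and Uqcrfs1, the Rieske iron-sulfur subunit, by 0.57 and 0.42 (adjusted p = 1.4e-04 and 0.002). In complex IV 6 of 13 rose in KO (median 0.23) and 9 of 13 in Ctrl (median 0.45). Cox5a led both, with 365, 310 and 368 RPKM in KO and 313, 320 and 331 RPKM in Ctrl activated libraries, against 163, 155 and 173 RPKM in KO and 93.8, 205 and 155 RPKM in Ctrl naive libraries. All activated libraries were above all naive ones, and the change was 1.08 (SE 0.18, adjusted p = 6.5e-05) in KO and 1.15 (SE 0.18, adjusted p = 3.7e-05) in Ctrl. Cox4i1, the ubiquitous form of subunit 4, changed by 0.28 (SE 0.09, adjusted p = 0.012) in KO and 0.47 (SE 0.09, adjusted p = 2.3e-04) in Ctrl, and the KO call was lost without naive KO replicate 2 (0.17, adjusted p = 0.078).

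Among the assembly factors Ndufaf2 rose in both genotypes, by 1.10 (SE 0.21, adjusted p = 3.1e-04) in KO and 0.87 (SE 0.21, adjusted p = 0.002) in Ctrl. In Ctrl it was the only one of the 8 to be called. In KO Ndufaf7 rose as well, by 0.58 (SE 0.22, adjusted p = 0.035), and Ndufaf3 fell by 0.55 (SE 0.17, adjusted p = 0.009; 0.059 without activated KO replicate 4). The other genes called lower in KO but not in Ctrl were Ndufa6, Ndufb4, Ndufb11, Ndufa7, Ndufs7 and Atp5e. Without activated KO replicate 3, the activated library of lowest estimated depth, Ndufb4, Ndufb11, Ndufa7 and Ndufs7 were not called (adjusted p = 0.051, 0.172, 0.072 and 0.067). Ndufs7 and Ndufa7 held in 1 of 6 such fits each. The test of the difference between genotypes in this step called 0 of the 85 genes in either direction. The lowest adjusted p was 0.103, and 1.35% of all genes were called higher and 1.27% lower. Among the members 8 had an unadjusted p under 0.05, for which no share of all genes is given here.

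**Figure D2:**
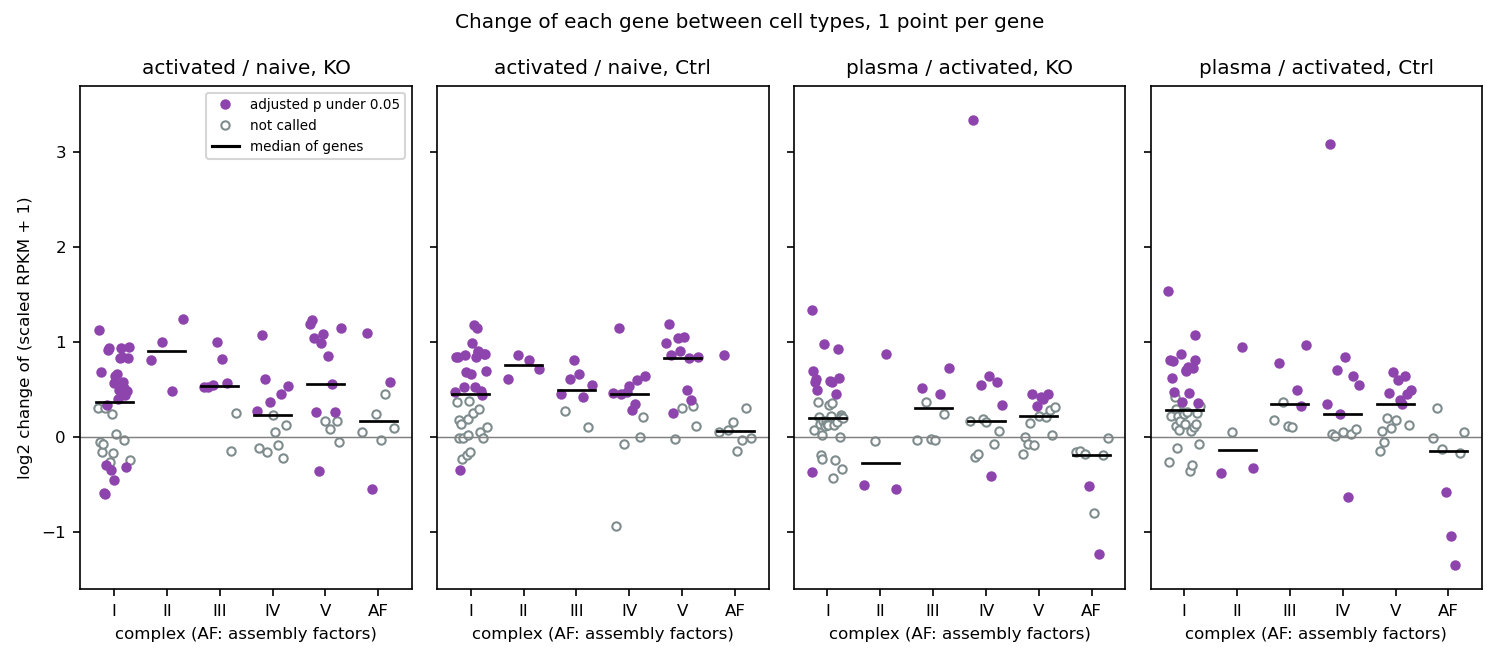
Change of each gene on the log2(scaled RPKM + 1) scale, by complex (AF: assembly factors), in activated against naive cells and in plasma against activated cells, for KO and Ctrl, with filled points at an adjusted p under 0.05 and a line at the median. The complex V median in Ctrl is 0.83 in activation and 0.35 in plasma cells, while complex II has 0.77 and then -0.14, and the medians of all members in the plasma panels come to 0.02 in Ctrl and 0.04 in KO under quantile normalization.

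Signs of other cells and of background also differed between naive and activated libraries. The 4 erythroid genes in the table, of 11 listed, summed to 68.4 to 85.2 RPKM in KO and 14.7 to 16.2 RPKM in Ctrl activated libraries, against 330 to 655 RPKM in KO and 352 to 456 RPKM in Ctrl naive libraries. For 4 of 8 platelet genes the sums were at most 1.45 RPKM in activated libraries, against 45.7 to 73.3 RPKM in KO and 49.6 to 126 RPKM in Ctrl naive libraries. For 8 of 13 monocyte and macrophage genes they were 26.6 to 59.4 RPKM in KO and 32 to 36.3 RPKM in Ctrl activated libraries, against 73.9 to 150 RPKM in KO and 118 to 151 RPKM in Ctrl naive libraries. For 4 of 11 T cell genes they were 12.1 to 14 RPKM in KO and 7.18 to 7.92 RPKM in Ctrl activated libraries. Naive libraries had 24 to 31.1 RPKM in KO and 15 to 70.6 RPKM in Ctrl. Sums of 6 of 8 dendritic genes overlapped, at 38.4 to 43.1 RPKM in KO and 31.2 to 37.6 RPKM in Ctrl activated libraries. In naive libraries these were 19.2 to 56.2 RPKM in KO and 29.2 to 44.6 RPKM in Ctrl. No gene of these lists was at 0 in all 3 libraries of a group. The median of 57 odorant receptor genes, which B cells are not known to use, was 0 to 0.952 RPKM in activated and plasma cell libraries and 1.7 to 7.02 RPKM in naive libraries. The 10 proliferation genes summed to 1609 to 1839 RPKM in KO and 1231 to 1438 RPKM in Ctrl activated libraries, against 151 to 156 RPKM in KO and 144 to 157 RPKM in Ctrl naive libraries. The part of these in the activation changes was not tested, and in sorted populations more RNA per cell cannot be told apart from a different mix of cells.

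In plasma cells a smaller set of genes was higher again. Compared with activated cells, 35 genes rose and 6 fell in Ctrl plasma cells (all genes: 16.1% and 16.7%), and 25 rose and 6 fell in KO (15.8% and 17.4%). All 25 that rose in KO rose in Ctrl too, as did 5 of the 6 that fell. The median change was 0.17 in KO and 0.24 in Ctrl, against -0.02 and -0.03 for all genes. The 4 erythroid genes summed to 6.5 to 62.3 RPKM in KO and 1.7 to 2.19 RPKM in Ctrl plasma cell libraries. The 4 T cell genes summed to 10.2 to 15.3 RPKM in KO and 1.76 to 3.28 RPKM in Ctrl plasma cell libraries. The part of these genes was not tested. The medians depend on how libraries were scaled. With RPKM as deposited they were 0.00 in KO (17 higher, 14 lower) and 0.03 in Ctrl (23 higher, 10 lower), beside -0.11 and -0.14 for all genes. After quantile normalization they were 0.04 (18 and 13) and 0.02 (21 and 12), beside -0.01 and 0.02 for all genes. By that last scaling the members in Ctrl thus had the same median as all genes. With RPKM as deposited higher genes made up 36.7% of all called in KO and 34.1% in Ctrl, against 47.6% and 49% by the scaling used throughout, and 54.8% and 69.7% of the members called, against 80.6% and 85.4%.

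Under each of those scalings Ndufa1, an X-linked accessory subunit of complex I, had the largest rise of the members after Cox4i2. It had 475, 513 and 421 RPKM in KO and 542, 668 and 553 RPKM in Ctrl plasma cell libraries, against 171, 220 and 166 RPKM in KO and 193, 198 and 209 RPKM in Ctrl activated libraries. The groups were far apart, at 1.34 (SE 0.13, adjusted p = 1.8e-07) in KO and 1.54 (SE 0.13, adjusted p = 2.7e-08) in Ctrl, and at 1.17 and 1.24 after quantile normalization. It was the most abundant complex I transcript in plasma cells, where Ndufa3 led in naive and activated cells. Ndufs5, another accessory subunit, had 203, 215 and 207 RPKM in KO and 235, 245 and 214 RPKM in Ctrl plasma cell libraries, against 116, 103 and 108 RPKM in KO and 98.7, 115 and 114 RPKM in Ctrl activated libraries. Its change was 0.93 (SE 0.12, adjusted p = 7.8e-06) in KO and 1.08 (SE 0.12, adjusted p = 1.2e-06) in Ctrl. Ndufb11 changed by 0.98 in KO and 0.88 in Ctrl (adjusted p = 3.3e-06 and 1.3e-05). Ndufa3, which fell in activation, rose here, by 0.50 in KO and 0.48 in Ctrl (adjusted p = 9.6e-04 and 0.001), and in Ctrl that call was lost with quantile normalization and with RPKM as deposited (adjusted p = 0.065 and 0.061).

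Of the complex I core, 1 of 7 genes rose in KO (median 0.13) and 2 of 7 in Ctrl (median 0.14), against 10 of 29 (with 1 lower) and 13 of 29 accessory genes (medians 0.21 and 0.33). In complex V 1 of 5 F1 genes rose in each genotype, and it was Atp5e, the one that had not risen in activation, at 0.46 in KO and 0.47 in Ctrl (adjusted p = 0.004 in each), calls lost after quantile normalization (adjusted p = 0.125 and 0.334) and with RPKM as deposited (adjusted p = 0.072 and 0.133). Atp5b stood at 1026, 1082 and 996 RPKM in KO and 983, 991 and 968 RPKM in Ctrl plasma cell libraries, a change of -0.00 (SE 0.10, adjusted p = 0.993) in KO and 0.07 (SE 0.10, adjusted p = 0.688) in Ctrl, which quantile normalization put at -0.63 and -0.41. Of the subunit c genes Atp5g1 rose by 0.33 in KO and 0.69 in Ctrl (adjusted p = 0.017 and 2.0e-05), the KO call being lost without activated KO replicate 1, activated KO replicate 4 or plasma KO replicate 1 (adjusted p = 0.072, 0.098 and 0.054) and, in KO, after quantile normalization or with RPKM as deposited (adjusted p = 0.341 and 0.235). In complex III 3 of 8 genes rose in KO and 4 of 8 in Ctrl. Uqcrq, an accessory subunit, had 283, 295 and 250 RPKM in KO and 339, 376 and 298 RPKM in Ctrl plasma cell libraries, against 168, 152 and 178 RPKM in KO and 164, 179 and 170 RPKM in Ctrl activated libraries. It changed by 0.73 (SE 0.12, adjusted p = 1.2e-04) in KO and 0.97 (SE 0.12, adjusted p = 4.2e-06) in Ctrl.

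Complex II went 2 ways in plasma cells. Sdhc, a membrane anchor, had 141, 135 and 125 RPKM in KO and 137, 145 and 132 RPKM in Ctrl plasma cell libraries, against 75.8, 60.3 and 81.9 RPKM in KO and 72.3, 73.2 and 67.2 RPKM in Ctrl activated libraries. It changed by 0.88 (SE 0.18, adjusted p = 8.8e-04) in KO and 0.95 (SE 0.18, adjusted p = 4.2e-04) in Ctrl. Its partner anchor Sdhd had 157, 144 and 134 RPKM in KO and 132, 150 and 126 RPKM in Ctrl plasma cell libraries, below all activated libraries of the same genotype. It fell by 0.55 (SE 0.12, adjusted p = 0.001) in KO and by 0.32 (SE 0.12, adjusted p = 0.043) in Ctrl. Sdha, at 153, 168 and 164 RPKM in KO and 149, 143 and 149 RPKM in Ctrl plasma cell libraries, fell by 0.50 (SE 0.14, adjusted p = 0.010) and by 0.38 (SE 0.14, adjusted p = 0.049).

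The calls of Sdha and Sdhd in Ctrl were close to the threshold. That of Sdha held only without activated Ctrl replicate 4 (adjusted p = 0.044) and that of Sdhd only without plasma Ctrl replicate 3 (adjusted p = 0.029), and leaving out any other library gave adjusted p-values of up to 0.157 and 0.162. In KO Sdha was not called without activated KO replicate 3 (-0.38, adjusted p = 0.074), the activated library of lowest estimated depth, and Sdhd was called in all 6 such fits. Both stayed negative under every scaling, at -0.68 and -0.71 in KO and -0.61 and -0.52 in Ctrl after quantile normalization. Sdhb had a change of -0.04 in KO and 0.05 in Ctrl, neither of them called. Sdhc thus made up 19.4% ± 0.412 of complex II RNA in KO and 20.7% ± 0.105 in Ctrl plasma cells, against 9.52% ± 1.89 in KO and 10.5% ± 0.301 in Ctrl activated cells (SD, n = 3).

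Cox4i2, an isoform of subunit 4 known from lung and regulated by oxygen in other cells, was low or absent before the plasma cell stage. It had 19.6, 15.6 and 10.6 RPKM in KO and 15, 13.7 and 14.9 RPKM in Ctrl plasma cell libraries, against 0.493, 0.826 and 0.403 RPKM in KO and 1.62, 0.277 and 0.796 RPKM in Ctrl activated libraries. Naive libraries had 0.29 and 2.75 RPKM and a listed 0 in KO, and 3.86, 0.823 and 3.83 RPKM in Ctrl. Every plasma cell library stood above all others, at 3.34 (SE 0.44, adjusted p = 5.5e-06) in KO and 3.09 (SE 0.44, adjusted p = 1.3e-05) in Ctrl relative to activated cells. The size depends on the pseudocount because activated levels are near 1 RPKM: with 0.1 in place of 1 the changes were 4.51 and 4.13. Even so Cox4i2 was 2.93% ± 0.876 of the RNA of both subunit 4 genes in KO and 2.52% ± 0.292 in Ctrl plasma cells, against 0.129% ± 0.0577 in KO and 0.203% ± 0.155 in Ctrl activated cells. Cox4i1 had 495, 520 and 505 RPKM in KO and 550, 613 and 533 RPKM in Ctrl plasma cell libraries. It was called higher than in activated cells in Ctrl (0.35, SE 0.09, adjusted p = 0.004), but was at -0.04 after quantile normalization, and was not called in KO (0.17, adjusted p = 0.161).

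**Figure D3:**
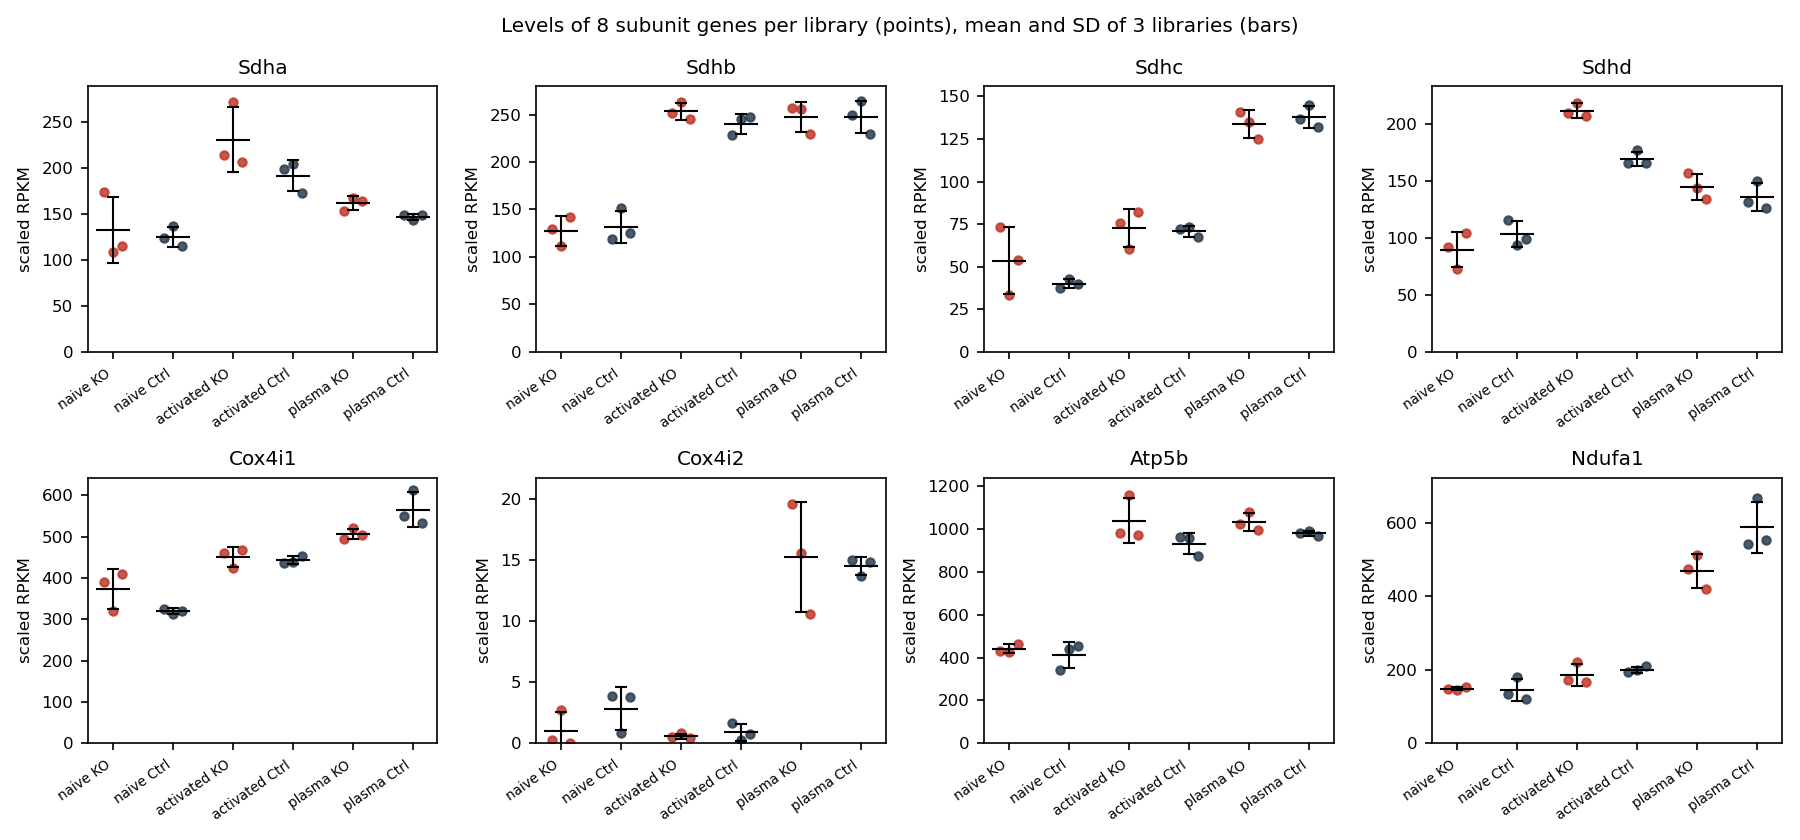
Scaled RPKM of Sdha, Sdhb, Sdhc, Sdhd, Cox4i1, Cox4i2, Atp5b and Ndufa1 in each library, with the mean and SD of 3 libraries per group. Cox4i2 is at 10.6 to 19.6 in plasma cell libraries and at most 3.86 in the rest, and Sdhc is at 125 to 145 in plasma cells while Sdhd is at 126 to 157 there and at 166 to 219 in activated cells.

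Other complex IV genes called in both genotypes were Cox7a2, with a change of 0.65 in KO and 0.85 in Ctrl (adjusted p = 1.1e-04 and 5.2e-06), Cox6a1, with 0.55 and 0.71 (adjusted p = 8.1e-05 and 4.3e-06), and Ndufa4, with 0.34 and 0.55 (adjusted p = 0.032 and 0.001). The calls of Ndufa4 were lost after quantile normalization (adjusted p = 0.914 and 0.056), and in KO with RPKM as deposited (adjusted p = 0.304) and without activated KO replicate 1 or 4 or plasma KO replicate 3 or 4 (adjusted p = 0.106, 0.098, 0.128 and 0.063). Cox7a2l moved the other way. It had 55.6, 54.8 and 56.9 RPKM in KO and 54.4, 65.7 and 50.9 RPKM in Ctrl plasma cell libraries, against 83.7, 63.8 and 76.9 RPKM in KO and 84.5, 83.3 and 97.2 RPKM in Ctrl activated libraries. It fell by 0.41 (SE 0.13, adjusted p = 0.024) in KO and by 0.63 (SE 0.13, adjusted p = 0.001) in Ctrl. The KO call held in 1 of 6 fits that left out a library, the one without activated KO replicate 3 (adjusted p = 0.010), and reached 0.126 in the others. The relatives Cox6a2, Cox6b2, Cox7a1, Cox7b2, Cox8b, Cox8c and Ndufa4l2 had no row in the table.

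No assembly factor rose in plasma cells in either genotype. Ndufaf6 had 3.02, 2.56 and 4.14 RPKM in KO and 2.58, 1.83 and 1.84 RPKM in Ctrl plasma cell libraries, against 8.31, 9.97 and 8.22 RPKM in KO and 6.79, 7.06 and 6.63 RPKM in Ctrl activated libraries. It fell by 1.23 (SE 0.32, adjusted p = 0.006) in KO and by 1.35 (SE 0.32, adjusted p = 0.003) in Ctrl. Ndufaf4 fell by 0.51 (SE 0.16, adjusted p = 0.016) in KO and by 0.58 (SE 0.16, adjusted p = 0.007) in Ctrl, with the KO call lost without activated KO replicate 1 or plasma KO replicate 1 (adjusted p = 0.060 and 0.064) and the Ctrl call without plasma Ctrl replicate 4 (adjusted p = 0.051). After quantile normalization the KO values of Ndufaf6 and Ndufaf4 had adjusted p-values of 0.051 and 0.055. Ndufaf5, near 2 RPKM in plasma cells, fell in Ctrl by 1.04 (adjusted p = 0.028), a call that held only without activated Ctrl replicate 4 (adjusted p = 0.043, and 0.057 to 0.106 otherwise), and had a change of -0.80 (adjusted p = 0.090) in KO.

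Set against naive cells, plasma cells had 60 genes higher and 5 lower in KO (all genes 24.7% and 37.1%) and 68 higher and 3 lower in Ctrl (24.3% and 44.4%). The medians were 0.62 in KO and 0.79 in Ctrl, against -0.27 and -0.37 for all genes. After quantile normalization they came to 0.40 in KO (50 higher, 9 lower) and 0.39 in Ctrl (47 higher, 7 lower), against -0.06 for all genes in each. With a filter at 5 RPKM the medians of all genes were -0.03 in KO and -0.05 in Ctrl. By the scaling used throughout, every complex III and complex V gene rose in Ctrl, 8 of 8 and 15 of 15, and 7 of 8 and 13 of 15 in KO. The 3 lower in Ctrl were Ndufaf4, Ndufaf5 and Ndufaf6. This comparison and the activation step share the naive libraries, and the plasma step shares the activated ones.

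Following each gene over both Ctrl steps, 20 rose in both, 27 only in activation and 14 only in the plasma step as called, while 3 (Sdha, Sdhd and Cox7a2l) rose and then fell and Ndufa3 fell and then rose. Called in neither were 17, among them Cox8a, Atp5g2, Atp5l, Ndufs7 and Ndufs4. Exon length here counts all annotated exon bases of a gene over its isoforms, which is not the length of the transcript present. Across the 85 members, Spearman's rho between exon length and change was 0.36 in KO and 0.34 in Ctrl activation. In the plasma step it was -0.35 and -0.32. Both steps use the activated libraries, with opposite sign, so the opposite signs of rho are not separate observations. Over 12313 genes with a length it was -0.05, -0.10, 0.02 and 0.02. These are descriptions across genes, which are not independent replicates. Split at the members' median length of 1756 bases, the 43 longer members had medians of 0.58 in KO and 0.67 in Ctrl activation and 0.12 in each plasma step, and the 42 shorter ones 0.29, 0.37, 0.31 and 0.38. RNA size or quality was not measured in the files, and its part was not tested.

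Loss of G9a was compared within each cell type. In naive cells 5 subunit genes were higher in KO and 0 lower, against 2.1% and 5.12% of all genes. The members' median was 0.16, with 65 of 85 positive, and that of all genes -0.09. After quantile normalization the medians were 0.09 and 0.00, and with a filter at 5 RPKM 0.16 and -0.01. The median of the odorant receptor genes was 4.2, 5.04 and 1.7 RPKM in KO and 6.6, 4.3 and 7.02 RPKM in Ctrl naive libraries, and its part was not tested. Of the 5 genes, 3 belong to complex I. Ndufs8, a core iron-sulfur subunit, had 96.6, 104 and 115 RPKM in KO and 74.4, 93.5 and 75 RPKM in Ctrl naive libraries, without overlap, a change of 0.38 (SE 0.10, adjusted p = 0.029). Ndufb6, an accessory subunit, had 97.4, 88.4 and 112 RPKM in KO and 46.7, 87.6 and 71 RPKM in Ctrl libraries (0.57, SE 0.16, adjusted p = 0.036). Ndufs7, a core subunit next to the ubiquinone site, had 211, 165 and 229 RPKM in KO and 136, 140 and 181 RPKM in Ctrl libraries, which overlapped (0.40, SE 0.12, adjusted p = 0.049).

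The other 2 encode the peripheral stalk of the ATP synthase. Atp5h had 318, 333 and 308 RPKM in KO and 243, 286 and 233 RPKM in Ctrl naive libraries (0.33, SE 0.10, adjusted p = 0.042). Atp5j had 135, 164 and 151 RPKM in KO and 104, 137 and 115 RPKM in Ctrl naive libraries, which overlapped (0.34, SE 0.10, adjusted p = 0.048). These calls rest on a spread shared with the activated and plasma cell libraries, where replicates were closer. Fitted on the 6 naive libraries alone limma called 0 genes of the whole table in either direction (0% and 0%), and the 5 genes had adjusted p-values of 0.692 to 0.700. In the fit of all libraries 23 members had an unadjusted p under 0.05. No share of all genes at that cut is given here, so the count does not show an excess. The count of members called higher was 1 without naive KO replicate 3 or naive Ctrl replicate 1, 3 without naive KO replicate 1, 11 without naive Ctrl replicate 2 and 13 without naive KO replicate 2. After quantile normalization 2 were higher and 1 lower.

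In activated cells 0 of 85 genes were called in either direction, against 0.422% higher and 1.36% lower of all genes, and 3 had an unadjusted p under 0.05: Sdhd (0.32), Atp5g1 (0.28) and Ndufa10 (0.22). The median was 0.06, with 62 positive, against -0.02 for all genes. The fit of activated libraries alone called 1 member higher, Sdhd (adjusted p = 0.018), where 5.26% of all genes were higher and 6.02% lower. A fit with library weights called 13 of 85 higher and 0 lower, where it called 8.88% of all genes higher and 10.2% lower. Sdhd stood at 210, 219 and 207 RPKM in KO and 166, 177 and 166 RPKM in Ctrl activated libraries, without overlap. Summed complex II RNA was 741 to 814 RPKM in KO and 653 to 699 RPKM in Ctrl activated libraries. A gap between genotypes was not particular to complex II. Complex I had 4512 to 4648 RPKM in KO and 4335 to 4470 RPKM in Ctrl. Complex III had 1747 to 1869 and 1648 to 1711 RPKM, and complex V 4648 to 4735 and 4275 to 4500 RPKM. Only complex IV overlapped, at 3735 to 3959 RPKM in KO and 3670 to 3878 RPKM in Ctrl. As a share of all summed RPKM complex I met as rounded, at 1.19% to 1.26% in KO and 1.16% to 1.19% in Ctrl. Complexes II, III and V stayed apart by that share. No share of all genes without overlap is given here, so these gaps do not show an excess. The KO libraries also differed in the 12 B cell identity genes, the 10 proliferation genes, the 4 erythroid genes and the 4 T cell genes, with sums given above. The 9 plasma cell genes summed to 962 to 1162 RPKM in KO and 1764 to 1954 RPKM in Ctrl activated libraries. The part of all these genes was not tested.

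In plasma cells 0 of 85 genes were called, against 0.438% higher and 0.172% lower of all genes, and 4 had an unadjusted p under 0.05: Ndufa1 (-0.32), Ndufs3 (-0.30), Uqcrq (-0.29) and Ndufaf4 (0.34). The median was -0.04, with 31 positive, against -0.00 for all genes. Plasma cell libraries alone gave 1 member lower, Ndufs3, just under the threshold (adjusted p = 0.050 as rounded), against 2.38% higher and 2.73% lower of all genes. Ndufa1 had 475, 513 and 421 RPKM in KO and 542, 668 and 553 RPKM in Ctrl plasma cell libraries, which did not overlap, and its adjusted p was 0.677. With library weights Ndufa1, Uqcrq and Ndufs3 were called lower (adjusted p = 0.032, 0.014 and 0.008), among 5 members lower and 1 higher, where 6.53% of all genes were lower and 6.3% higher in that fit. The KO plasma cell libraries also had higher sums of erythroid and T cell genes and lower sums of B cell identity genes. Those sums are given above, and their part was not tested.

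Whether the KO effect itself differed between cell types was tested as an interaction. Between plasma and activated cells 0 members were called (all genes 0.156% higher and 0% lower), with 1 at an unadjusted p under 0.05. Between plasma and naive cells 0 were called (0.946% and 0.438%), with a lowest adjusted p of 0.126 and a median difference of -0.21. There 19 members had an unadjusted p under 0.05. The percentages are of adjusted calls, and no share of all genes at the unadjusted cut is given here. A p above the threshold does not show that the effects were alike.

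**Figure D4:**
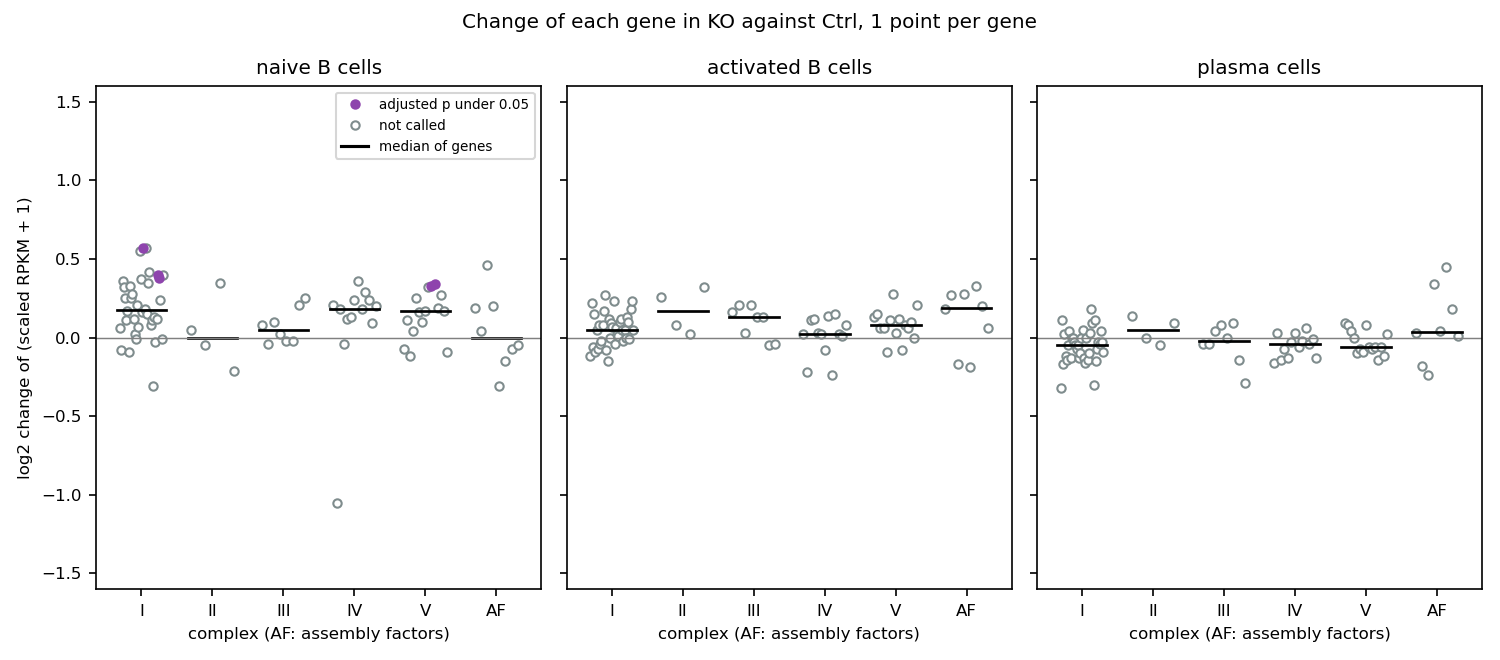
Change of each gene in KO against Ctrl on the log2(scaled RPKM + 1) scale, by complex (AF: assembly factors), in naive, activated and plasma cells, with filled points at an adjusted p under 0.05 and a line at the median of each class. The 5 filled points are in naive cells, in complexes I and V, and the point at -1.05 is Cox4i2, which had 0 to 3.86 RPKM in naive libraries.

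Genes that feed or serve the chain were taken from lists of their own. In activation 17 of 18 genes of the tricarboxylic acid cycle rose in KO (median 0.85) and 15 in Ctrl (0.61), led by Idh3a, of NAD-dependent isocitrate dehydrogenase, at 101 ± 0.433 RPKM in KO and 72.6 ± 9.51 RPKM in Ctrl activated cells, against 29.3 ± 3.6 RPKM in KO and 26.7 ± 1.64 RPKM in Ctrl naive cells (1.75 and 1.41, adjusted p = 8.8e-10 and 2.0e-08). In plasma cells 2 rose and 6 fell in KO, and 3 rose and 4 fell in Ctrl. There Idh2, the NADP-dependent enzyme, changed by 1.23 in KO and 1.19 in Ctrl, and Fh1, fumarate hydratase, which follows complex II in the cycle, fell to 47.9 ± 1.21 RPKM in KO and 35.9 ± 1.04 RPKM in Ctrl plasma cells, against 112 ± 6.55 RPKM in KO and 104 ± 3.81 RPKM in Ctrl activated cells (adjusted p = 9.5e-08 and 4.7e-09). Of 22 electron and nucleotide carriers 14 rose and 1 fell in KO activation, and 11 rose and 1 fell in Ctrl. The adenine nucleotide translocator Slc25a4 stood at 164 ± 11.3 RPKM in KO and 137 ± 0.965 RPKM in Ctrl activated cells, against 50.1 ± 7 RPKM in KO and 40.4 ± 9.39 RPKM in Ctrl naive cells, and at 46.7 ± 1.54 RPKM in KO and 42.4 ± 3.76 RPKM in Ctrl plasma cells (SD, n = 3).

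The 77 mitochondrial ribosomal protein genes followed activation (38 higher and 1 lower in KO, 37 and 1 in Ctrl) but not the plasma step, where 8 were higher and 17 lower in KO and 12 and 13 in Ctrl. Of 46 other assembly factors 14 rose and 9 fell in KO activation and 11 and 8 in Ctrl, and 4 and 7 in KO and 6 and 5 in Ctrl in the plasma step. Of 20 regulators 1 rose and 4 fell in KO activation and 2 and 5 in Ctrl, and 1 and 3 in KO and 2 and 2 in Ctrl in the plasma step. The shares of all genes called were those given for each step, at 21.2% higher and 34.5% lower in KO and 19% and 39.4% in Ctrl activation, and 15.8% and 17.4% in KO and 16.1% and 16.7% in Ctrl in the plasma step. Several counts of the assembly factors and regulators were near or below them. Among the regulators Myc had 37.4 ± 4.1 RPKM in KO and 31.5 ± 0.839 RPKM in Ctrl activated cells, against 79.4 ± 14.6 RPKM in KO and 89.4 ± 4.4 RPKM in Ctrl naive cells. In plasma cells it was 18 ± 1.29 RPKM in KO and 10.3 ± 1.22 RPKM in Ctrl (0.75, SE 0.13, adjusted p = 0.008), the 1 regulator called between genotypes. Between genotypes the lists also had Ttc19, a complex III factor, at 10.4 ± 1.14 RPKM in KO and 4.42 ± 2.15 RPKM in Ctrl naive cells (1.15, adjusted p = 0.008), and Timmdc1, a complex I factor, at 3.95 ± 0.97 RPKM in KO and 9.96 ± 1.94 RPKM in Ctrl naive cells (-1.15, adjusted p = 0.002). Other naive calls included Dmac1 (0.81, adjusted p = 8.6e-04), Vdac3 (0.45), Mrpl55 (0.70), Mrpl27 (0.80) and Mrpl49 (-0.73). Of all genes 2.1% were called higher and 5.12% lower in that comparison. Fitted on the naive libraries alone, limma called 0 genes of the whole table, so none of these naive calls held there. In activated cells Idh3a and Suclg1 were higher in KO, by 0.47 and 0.43 (adjusted p = 0.037 and 0.028).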

How the data were processed

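RNA from B220+GL7+ activated B cells, CD138+ plasma cells and bead-enriched naive B cells of mouse spleen was sequenced from 1000 cells a library with SMART-seq v4 and Nextera XT, per the labels. The deposited values are RPKM computed by the authors for 12960 genes, 1 column a library (no value column was ignored). STAR and mm10 are named in the submitters' processing notes. The sources used here do not state versions, gene models, a detection criterion or how reads shared with pseudogenes or paralogs were counted. Many respiratory chain genes have processed pseudogenes, so their values are uncertain to that extent. Depth was estimated from the steps between low RPKM values times gene length and limits precision through counting error only. At the estimates 35.3% to 45% of the values scored in a library lay within 0.1 of a whole count, so the depths are rough.

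RPKM was divided by a median-of-ratios factor over 8012 genes above 1 RPKM in all libraries (0.903 to 1.07). Genes with a mean of at least 1 in 1 group were tested (12787; 173 were left out) as log2(scaled RPKM + 1), which understates changes of low genes, in limma 3.58.1 under R 4.3.3 (lmFit, eBayes with a trend, two-sided, 18 libraries, 6 group means, 12 contrasts), with Benjamini-Hochberg adjustment and a threshold of 0.05. Counts of members at an unadjusted p under 0.05 stand without the share of all genes at that cut, so they do not show an excess. The test was tried on simulated data with known changes. IDs were matched to RefSeq (12946 of 12960), and 24 symbols were restored. Tables and plots were made in Python 3.11.15 (matplotlib 3.10.9, pandas 2.3.3, numpy 2.4.6).

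Named genes were up to 3 called subunits per complex and direction with the smallest adjusted p, 11 core subunits, the isoform families, called assembly factors up to 3 per direction, and up to 3 genes per neighbouring list, of which a selection is described; others, such as Atp5e, Ndufs7, Ndufb11 and Ndufa10, were chosen after their values were seen. Values of 1 core subunit that the rule names are not reported here. Members and lists were chosen with earlier results of these data known. Alternatives were another pseudocount (0.1), unscaled values, quantile normalization, no filter, a filter at 5 RPKM, own libraries, library weights, a replicate block and leaving out each library.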

Additional observations from a re-analysis of the deposited data

How the results depend on the processing

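Under RPKM as deposited, members called lower in KO activation were 5; in the plasma step against activated cells 14 in KO (median 0.00), and 23 higher and 10 lower in Ctrl (median 0.03); plasma against naive cells gave 9 lower in KO (median 0.49) and a median of 0.62 in Ctrl. Quantile normalization gave, in naive KO against Ctrl, 2 higher and 1 lower; in Ctrl activation 4 lower (median 0.32); in the plasma step 13 lower in KO (0.04) and 21 higher and 12 lower in Ctrl (0.02); against naive cells 9 lower in KO (0.40) and 7 in Ctrl (0.39); and for the interactions 1 higher (activated minus naive) and a median of -0.08 (plasma minus naive). It also turned the sign of 24 of the 85 members in the Ctrl and 11 in the KO plasma step, of 16 in Ctrl and 7 in KO plasma against naive cells, and of 3 to 25 in the other comparisons. Of the named genes called by at least 1 of the 2 scalings these were, in the Ctrl plasma step, Sdhb (-0.27), Cox4i1 (-0.04), Atp5b (-0.41), Cox6b1 (-0.11) and Cox8a (-0.27), in the KO plasma step Cox8a (-0.27), and in Ctrl plasma against naive cells Sdhd (-0.02) and Cox8a (-0.09). The cause was not tested.

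In naive KO against Ctrl the members called higher were 1 with a pseudocount of 0.1, 3 with a filter at 5 RPKM, and 0 with own libraries, library weights or the replicate block. Own libraries gave 1 higher in activated and 1 lower in plasma KO against Ctrl, 4 lower in KO activation, 13 lower in the KO plasma step and 3 lower in KO plasma against naive cells. Library weights gave 13 higher in activated KO, 1 higher and 5 lower in plasma KO, 2 lower in KO activation, 42 higher and 15 lower in the KO plasma step, 11 lower in the Ctrl plasma step, 3 lower in KO plasma against naive cells, and 4 lower in the interaction of plasma and activated cells. The cause of these shifts was not tested.

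Whether replicate numbers pair the samples was not settled. Between KO and Ctrl the correlations of same-numbered deviations were -0.000943, -0.189 and -0.122 in naive and -0.212, -0.165 and 0.0701 in activated cells. Plasma cells had 0.0681, 0.195 and 0.312, each the highest for its KO library, where pairs of unlike number had -0.283 to 0.0953. From plasma to activated cells same-numbered values were 0.0546, -0.192 and -0.0251 in KO and -0.00849, 0.122 and 0.154 in Ctrl. With the replicate block 2 members were higher in activated KO and 3 lower in plasma KO (Ndufa1, Uqcrq and Ndufs3, adjusted p = 0.013, 0.012 and 0.017), 4 were lower in KO and 2 in Ctrl activation, and 11 in KO and 10 in Ctrl in the plasma step.

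Leaving out 1 library at a time, naive KO against Ctrl gave 1 to 13 higher and 0 to 1 lower; Ctrl activation 1 to 3 lower and KO activation 3 to 11 lower; the Ctrl plasma step 2 to 5 lower; KO plasma against naive cells 2 to 6 lower with medians of 0.52 to 0.71; and the interactions 0 to 1 higher and 0 to 4 lower (activated minus naive) and 0 to 8 lower (plasma minus naive). Naive libraries had a median replicate correlation of 0.919 in KO and 0.926 in Ctrl, which limits the KO comparison there.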
